A study of Rattus norvegicus with 18 samples.

Results

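The proteasome genes of rat liver were followed across control rats and the NASH and NASH-CH stages of the BarNa model, which combines the hepatotoxin carbon tetrachloride (CCl4) with a high-fat, high-cholesterol diet (HFCD). Genes were taken when their symbol began with Psma to Psmg and a number and when at least 10 rounded counts were present in 6 or more of the 18 rats. This gave 47 of the 32623 genes quantified. The pattern matched 50 genes, and Psma8, Psmb11 and Psme1-ps1 did not reach the count minimum. All 47 also passed the filter for testing. Reads that could not be given to 1 gene were split between genes during quantification, and counts with fractions were present in 15 or more rats for Psma3, Psmb6, Psmb8, Psme1, Psme3 and Psmd12, so the levels of these 6 genes are less certain.

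Male Wistar rats were used in all groups, with 6 rats and 1 liver library per rat in each. Control rats ate chow for 12 weeks. NASH rats inhaled CCl4 for 6 weeks and then ate the HFCD for 4 weeks, 10 weeks in all. NASH-CH rats, the cirrhosis stage, were exposed to CCl4 for 24 weeks and ate the HFCD for the last 16. CCl4 was given with phenobarbital in the drinking water, so both disease groups had phenobarbital and control rats had none. Duration differed between the groups as well, and the parts of toxin, phenobarbital, diet and time cannot be told apart. Ages are not given in the sources used here.

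The proteasome degrades proteins tagged with ubiquitin. Its 20S core is a barrel of outer alpha rings and inner beta rings, and the beta subunits Psmb5, Psmb6 and Psmb7 carry the cutting sites. The 19S regulatory particle caps the barrel, with a base of ATPases that unfold substrates and a lid that removes ubiquitin. Under interferon, cells replace the cutting subunits with Psmb8 (LMP7), Psmb9 (LMP2) and Psmb10 (MECL1), which form the immunoproteasome, and make more of the Psme1 and Psme2 activator (PA28). The immunoproteasome is known for the peptides it supplies to MHC class I, and it is abundant in leukocytes and inducible in hepatocytes.

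By role, the 47 genes comprised 14 genes of the standard core (7 alpha and 7 beta), 17 of the regulatory particle (6 base ATPases, 3 other base subunits and 8 lid subunits), 5 immune genes (3 catalytic and 2 activator) and 11 others. The others were the activators Psme3 and Psme4, the inhibitor Psmf1, the 7 assembly chaperones Psmg1 to Psmg4, Psmd5, Psmd9 and Psmd10, and Psmc3ip, a meiotic recombination gene that shares the name pattern but is not a subunit. Levels are given as CPM, the counts of a gene scaled to a common library total, on library sizes scaled by the TMM method, and differences as log2 fold changes from the limma-voom fit of all 18 rats. Adjusted p-values come from limma's moderated statistics after the Benjamini-Hochberg procedure over the 12904 genes tested, with a threshold of 0.05.

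By the median log2 fold change, standard core and regulatory genes lay below control in both models, and 3 of the 47 genes passed the threshold in NASH and 14 in NASH-CH. In NASH the log2 fold change was below 0 for 45 of the 47 genes, against 49.0% of all genes tested, with a median of -0.27 beside 0.01 over all genes. In NASH-CH it was below 0 for 44 of 47, against 48.5% of all genes, with a median of -0.19 beside 0.01. Both comparisons used the same 6 control rats, so their values stand side by side and are not separate evidence. The immune genes had a median of -0.39 in NASH and -0.07 in NASH-CH, and 0 of 5 passed the threshold by limma in either model, with 4 lower in NASH and 0 in NASH-CH at an unadjusted p under 0.05. In bulk liver, fewer cells of a type and less RNA per cell cannot be told apart.

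These differences are relative to the typical gene. Without TMM scaling, on library size only, the median of all genes moved to 0.23 in NASH and 0.27 in NASH-CH. The core medians were then -0.08 in both models and the regulatory medians 0.04 and 0.085, so the regulatory direction turned. Relative to the median of all genes they were -0.31 and -0.35 for the core and -0.19 and -0.18 for the regulatory genes, and all 14 core and all 17 regulatory genes lay below that median. Scaling moves all genes of a library alike, so values relative to that median could hardly change and are no separate check. The 47 genes together took 0.161% to 0.171% of all counts in control rats, 0.145% to 0.199% in NASH and 0.164% to 0.191% in NASH-CH. As a share of all counts the groups thus overlapped. Genes of 7SK, signal recognition particle, 5S and 5.8S RNA, which are not mRNA, took 15.2% to 21.1% of all counts in control rats, 13.9% to 16.2% in NASH and 10.5% to 12.6% in NASH-CH, so NASH-CH lay wholly below control. With these genes left out, the counts of proteasome genes that fell were 3 in NASH and 15 in NASH-CH.

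**Figure D1:**
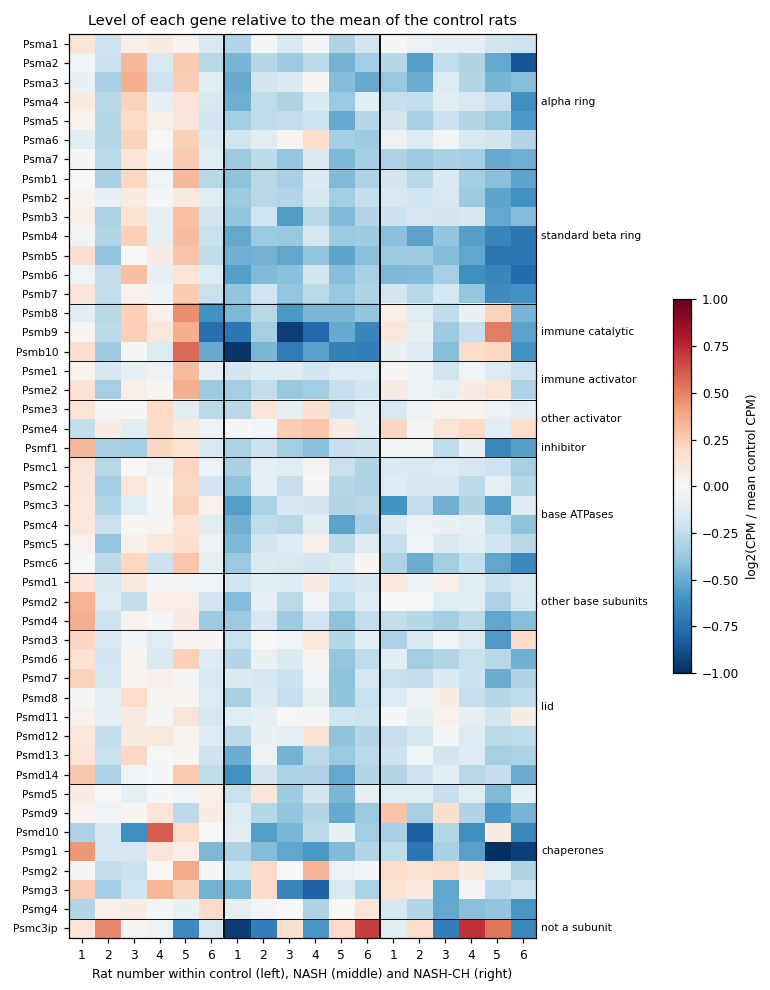
Level of each of the 47 genes in each rat, as the log2 ratio of its CPM to the mean CPM of the 6 control rats (blue, lower; red, higher; colours stop at -1 and 1), with control, NASH and NASH-CH rats from left to right and genes grouped by role. Most core and regulatory rows are blue in both models, and the immune catalytic rows are blue in NASH and mixed in NASH-CH.

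In NASH rats, 3 of the 47 genes fell and 0 rose past the threshold, where 1.54% of all genes tested fell and 1.58% rose. At an unadjusted p under 0.05, 27 of 47 were lower and 0 higher, beside 11.0% of all genes lower. The 3 that fell were Psmb5, Psmb6 and Psma7, all of the standard core. This count rested on single rats. Without control rat 6 it was 17, without control rat 2 it was 10, and without NASH-CH rat 5 or 6 it was 7 or 6. It was 0 without control rat 1, 3, 4 or 5 or NASH rat 1, 3 or 5, and 1 without NASH rat 6 or NASH-CH rat 1, 2 or 4. DESeq2's Wald test gave 16 and library size only gave 0.

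In NASH-CH rats, 14 of the 47 genes fell and 0 rose, where 8.60% of all genes fell and 8.38% rose. By role these were 8 of 14 core genes, 4 of 17 regulatory genes, 2 of 7 chaperones and 0 of 5 immune genes. Lower values at an unadjusted p under 0.05 were found for 20 of 47, beside 15.6% of all genes. The count was 11 to 19 when any 1 rat was left out, 18 with DESeq2, and 4 on library size only, which also gave 1 gene as higher. NASH-CH libraries were deeper, with 44680401 to 60117864 counts against 19498566 to 29491971 in the other groups, and the part of depth in these differences was not tested.

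**Figure D2:**
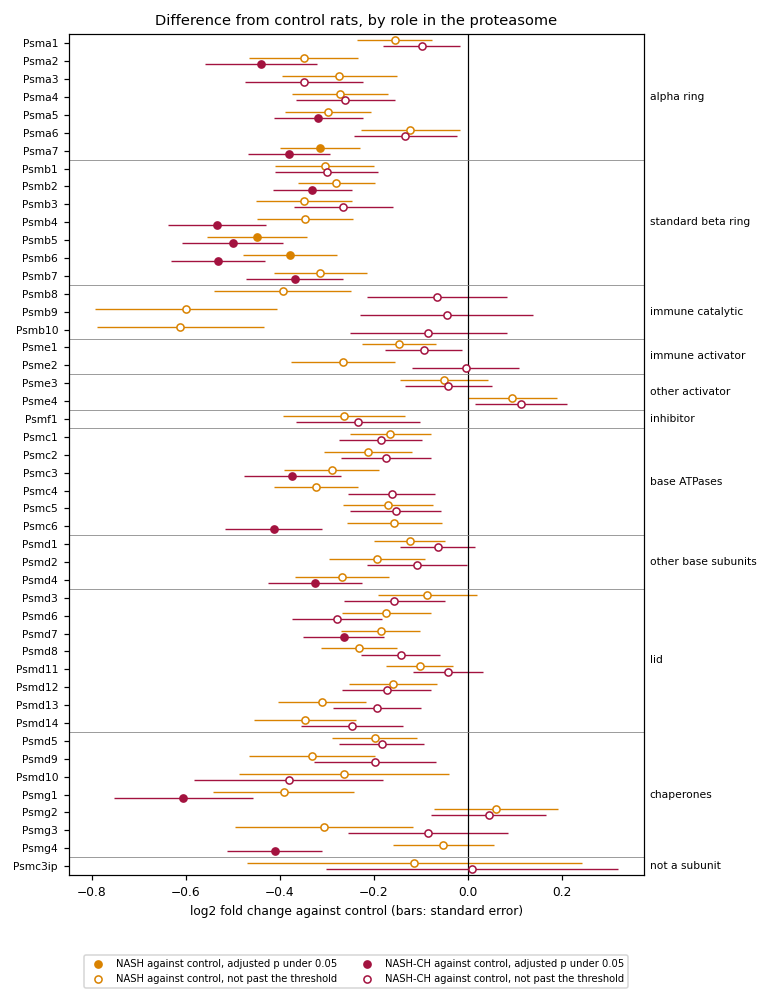
Log2 fold change of each gene in NASH (orange) and NASH-CH (red) against control, with bars of 1 standard error and filled points where the adjusted p was under 0.05. Filled points number 3 in NASH and 14 in NASH-CH, all left of 0, and the 3 immune catalytic genes lie at -0.39 to -0.61 in NASH and close to 0 in NASH-CH.

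Among standard beta subunits, which form the inner rings, 2 of the 3 that cut protein fell in both models and the third in NASH-CH. Psmb5, the chymotrypsin-like site, measured 25.98 to 41.7 CPM among control rats (median 35.3), 23.8 to 26.1 among NASH rats (24.6) and 20.7 to 26.8 among NASH-CH rats (24.6). The lowest control rat lay within the range of both disease groups, and the other control rats lay above every NASH and NASH-CH rat. Its log2 fold change was -0.45 for NASH (SE 0.11, adjusted p = 0.0295) and -0.50 for NASH-CH (SE 0.11, adjusted p = 0.0042). Psmb6, the caspase-like site, measured 26.3 to 38.4 CPM among control rats (29.9), 21.3 to 27.5 among NASH rats (23.3) and 18.2 to 24.8 among NASH-CH rats (21.6). Every NASH-CH rat was below every control rat for Psmb6, and the NASH range overlapped control at its upper end. The log2 fold changes were -0.38 (SE 0.10, adjusted p = 0.0452) and -0.53 (SE 0.10, adjusted p = 0.00154). In NASH the Psmb5 call was lost without control rat 1, 3, 4 or 5 or NASH rat 1, 3 or 5 (-0.39 to -0.45). The Psmb6 call in NASH was kept only without control rat 2 or 6, NASH rat 4 or NASH-CH rat 3, 5 or 6, and the other 12 fits gave -0.32 to -0.39.

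The third cutting subunit, Psmb7, with the trypsin-like site, measured 53.4 to 75.8 CPM among control rats (63.1), 48.1 to 55.0 among NASH rats (49.9) and 40.7 to 55.8 among NASH-CH rats (50.1). Its fall passed the threshold in NASH-CH (log2 fold change -0.37, SE 0.10, adjusted p = 0.0205), and the NASH value was -0.31 (adjusted p = 0.083). The beta subunits without a cutting site moved by like amounts. Psmb4 had the largest core fold change in NASH-CH, -0.53 (SE 0.10, adjusted p = 0.00217), with 32.4 to 40.8 CPM (36.8) below all control rats at 43.9 to 66.7 (51.3), and in NASH it measured 37.7 to 47.8 (41.6; adjusted p = 0.0655). Psmb2 was at 40.8 to 46.9 CPM among control rats (44.5), 34.4 to 39.2 among NASH rats (36.3) and 29.0 to 39.6 among NASH-CH rats (36.5). All 12 disease rats were thus below all control rats for Psmb2, which fell in NASH-CH (-0.33, adjusted p = 0.0123) and in NASH gave -0.28 (adjusted p = 0.0643). Psmb2 was the 1 gene of the 47 with no overlap with control in NASH, where 1.39% of all genes lay wholly below control. In NASH-CH these were 4 genes, Psmb2, Psmb4, Psmb6 and Psma7, beside 3.46% of all genes. Psmb1 gave -0.30 in both models, and Psmb3, the beta subunit with the smallest difference in NASH-CH, gave -0.27 there (adjusted p = 0.0898) and -0.35 in NASH.

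Alpha subunits, which form the outer rings and the gate, had a median of -0.27 in NASH and -0.32 in NASH-CH. Psma7 measured 43.2 to 62.2 CPM among control rats (50.9), 38.1 to 47.1 among NASH rats (40.7) and 36.6 to 41.8 among NASH-CH rats (40.7). It fell in both models, by 0.32 (SE 0.08, adjusted p = 0.0496) and 0.38 (SE 0.09, adjusted p = 0.00676) on the log2 scale, with no overlap in NASH-CH. The NASH call was lost in 13 of 18 fits that each left out 1 rat, with values of -0.26 to -0.33 there, and was kept without control rat 2 or 6, NASH rat 4 or NASH-CH rat 5 or 6. Psma2 had the largest alpha difference in NASH-CH, -0.44 (adjusted p = 0.0172), with 24.7 to 37.6 CPM there (33.7) against 36.7 to 55.7 in control (41.6), so that the ranges met. Psma5 also fell in NASH-CH (-0.32, adjusted p = 0.0272), though not without control rat 3 (-0.28), 4 (-0.31) or 5 (-0.30) or NASH-CH rat 6 (-0.26). Psma1 and Psma6 lay nearest to control, with log2 fold changes of -0.10 to -0.16 over both models and adjusted p-values of 0.262 to 0.543. The remaining alpha genes, Psma3 and Psma4, gave -0.26 to -0.35 and passed in neither.

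The regulatory particle moved less. Its 17 genes had a median of -0.19 in NASH, where 0 of 17 passed by limma (8 lower and 0 higher at an unadjusted p under 0.05). The median was -0.17 in NASH-CH, where 4 fell. Among the ATPases that unfold substrates, Psmc6 measured 46.0 to 66.6 CPM among control rats (53.4), 42.5 to 55.7 among NASH rats (49.6) and 35.2 to 46.6 among NASH-CH rats (41.1). The top of the NASH-CH range passed the bottom of the control range, and the log2 fold change was -0.41 in NASH-CH (SE 0.10, adjusted p = 0.0117) and -0.16 in NASH. Psmc3, another ATPase, fell in NASH-CH by 0.37 on the log2 scale (adjusted p = 0.0193), and in NASH gave -0.29 (adjusted p = 0.109). Psmc4 had the largest ATPase difference in NASH, -0.32 (adjusted p = 0.0549), while NASH-CH gave -0.16. Psmc1, Psmc2 and Psmc5 gave -0.15 to -0.21 over both models and passed in neither.

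Psmd4, a ubiquitin receptor of the base, measured 22.6 to 37.2 CPM among control rats (29.2), 21.8 to 25.7 among NASH rats (23.6) and 20.2 to 24.4 among NASH-CH rats (23.3). It fell in NASH-CH (-0.33, SE 0.10, adjusted p = 0.0335), but not without control rat 1 (-0.26), 3 (-0.32), 4 (-0.33) or 5 (-0.31) or NASH-CH rat 5 (-0.29) or 6 (-0.30). Psmd1, a scaffold of the base, lay near control, at -0.12 and -0.06, and Psmd2, another scaffold, gave -0.19 and -0.11. In the lid, Psmd7, the partner of the ubiquitin-removing enzyme Psmd14, measured 41.1 to 53.9 CPM in control (46.2) and 32.6 to 41.6 in NASH-CH (39.2). Its log2 fold change was -0.26 in NASH-CH (SE 0.09, adjusted p = 0.0425), and that call was lost in 13 of 18 fits that each left out 1 rat, with values of -0.22 to -0.28 in those fits; it was kept without control rat 2 or 6, NASH rat 4 or 5 or NASH-CH rat 3. Psmd14 itself gave -0.35 for NASH (adjusted p = 0.0825) and -0.25 for NASH-CH. Psmd6 had the largest lid difference in NASH-CH, -0.28 (adjusted p = 0.0525). Psmd3 had the smallest in NASH (-0.09, and -0.16 in NASH-CH) and Psmd11 the smallest in NASH-CH (-0.04, and -0.10 in NASH). Psmd8, Psmd12 and Psmd13 gave -0.14 to -0.31 over both models and passed in neither.

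The immune genes are shown first by the sequence around their start sites, because interferon acts on them through short promoter elements. Promoters of 300 bases, 250 before and 50 after the start, were taken from RefSeq (rat build GRCr8, another build than Rnor_6.0, on which the reads were counted), and 43 of the 47 genes were matched by symbol. Psma7, Psmd6, Psmd12 and Psmd14 are not in that table. Capitals mark the core of the interferon-stimulated response element (ISRE; GAAA, any 2 bases, GAAA) and the gamma-activated site (GAS; TTCNNNGAA), searched on both strands. The promoters lie at chr19:50743243-50743542 on the minus strand for Psmb10, chr15:33052702-33053001 on the minus strand for Psme2, chr20:4656982-4657281 on the minus strand for Psmb8 and chr20:4668750-4669049 on the plus strand for Psmb9.
Psmb10: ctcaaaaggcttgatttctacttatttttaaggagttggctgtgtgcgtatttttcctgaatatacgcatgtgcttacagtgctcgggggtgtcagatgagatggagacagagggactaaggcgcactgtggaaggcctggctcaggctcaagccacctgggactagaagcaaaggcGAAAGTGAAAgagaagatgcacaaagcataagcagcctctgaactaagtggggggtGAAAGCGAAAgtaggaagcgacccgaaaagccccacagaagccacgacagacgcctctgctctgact
Psme2: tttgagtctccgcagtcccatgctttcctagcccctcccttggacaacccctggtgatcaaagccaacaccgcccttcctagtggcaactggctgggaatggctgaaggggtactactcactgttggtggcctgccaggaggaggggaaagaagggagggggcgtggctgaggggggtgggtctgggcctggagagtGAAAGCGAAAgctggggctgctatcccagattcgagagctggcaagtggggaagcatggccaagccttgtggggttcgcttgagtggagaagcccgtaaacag
Psmb8: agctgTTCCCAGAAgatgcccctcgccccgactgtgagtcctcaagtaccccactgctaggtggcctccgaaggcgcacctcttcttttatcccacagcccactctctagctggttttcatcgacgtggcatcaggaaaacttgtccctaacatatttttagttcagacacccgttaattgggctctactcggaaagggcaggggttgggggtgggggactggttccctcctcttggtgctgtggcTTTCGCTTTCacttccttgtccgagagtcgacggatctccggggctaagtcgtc
Psmb9: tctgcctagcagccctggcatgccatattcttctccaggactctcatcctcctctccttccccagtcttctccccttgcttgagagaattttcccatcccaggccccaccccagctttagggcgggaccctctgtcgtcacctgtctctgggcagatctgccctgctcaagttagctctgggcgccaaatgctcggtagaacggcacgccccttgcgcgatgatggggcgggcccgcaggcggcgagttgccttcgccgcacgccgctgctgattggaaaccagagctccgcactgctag
Psmb10 held 2 matches to the ISRE core, beginning 73 and 17 bases before the start. Psme2 held 1 match, beginning 53 bases before it. Psmb8 held 1 across the start on the other strand, beginning 4 bases before it, and 1 GAS match beginning 245 bases before it. Psmb9 and Psme1 held neither in this window. An ISRE core was thus found in 3 of 5 immune promoters and 7 of the 43 promoters of this family, and in 3.92% of the 33469 promoters in the table, and a GAS match in 4 of 43 and 8.87%. The 4 other genes with an ISRE core were Psma4, Psmb3, Psmd7 and Psmg4. A match is a run of letters, and binding was not measured.

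Psmb10 and Psmb9 had the largest differences from control of all 47 genes in NASH, and Psmb8 followed Psmb5. Psmb8 measured 21.5 to 45.1 CPM among control rats (32.1), 21.9 to 27.0 among NASH rats (24.0) and 23.7 to 38.2 among NASH-CH rats (30.6). Psmb9 measured 9.43 to 20.5 CPM among control rats (16.8), 8.29 to 12.6 among NASH rats (9.88) and 10.96 to 22.7 among NASH-CH rats (14.3). Psmb10 measured 9.93 to 20.9 CPM among control rats (13.4), 7.17 to 10.3 among NASH rats (8.77) and 9.25 to 16.2 among NASH-CH rats (13.1). For each of these 3 genes NASH rats sat together in the lower part of a wide control range or below it, and NASH-CH rats covered most of that range.

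None of the 5 immune genes passed the threshold in any of the 3 comparisons, while 4 of 5 were lower at an unadjusted p under 0.05 in NASH, beside 11.0% of all genes, and 0 of 5 in NASH-CH, beside 15.6%. The log2 fold changes in NASH were -0.61 for Psmb10 (SE 0.18, adjusted p = 0.0628), -0.60 for Psmb9 (SE 0.19, adjusted p = 0.0894) and -0.39 for Psmb8 (SE 0.15, adjusted p = 0.13). They passed without control rat 6, a control rat with low immune genes, at -0.71, -0.75 and -0.51. Psmb10 also passed without control rat 2 (-0.67) or NASH-CH rat 5 (-0.61) or 6 (-0.60). In NASH-CH the same 3 genes gave -0.08, -0.05 and -0.07, with adjusted p-values of 0.764 to 0.887. These small values turned positive on library size only and when control rat 5 or NASH-CH rat 6 was left out (0.01 to 0.05), and for Psmb9 also without control or NASH-CH rat 3 (0.0043 and 0.0047).

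Between the 2 models, all 5 immune genes were higher in NASH-CH than in NASH by log2 fold change, with a median of 0.33 beside 0.01 over all genes. Psmb9 differed by 0.55 (SE 0.19, adjusted p = 0.115), Psmb10 by 0.53 (SE 0.17, adjusted p = 0.0949), Psmb8 by 0.33 (SE 0.15, adjusted p = 0.256) and Psme2 by 0.26 (SE 0.11, adjusted p = 0.23). These 4 had an unadjusted p under 0.05, beside 9.09% of all genes higher, and 0 of the 47 genes rose past the threshold, where 1.81% of all genes did. Without NASH-CH rat 6 Psmb10 rose by 0.62 and passed. DESeq2's Wald test gave 2 of the 47 genes as higher. The medians of core and regulatory genes were -0.05 and 0.02 in this comparison.

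The activator pair differed less. Psme1 measured 61.0 to 85.2 CPM among control rats (65.4), 59.9 to 62.8 among NASH rats (62.3) and 59.6 to 69.3 among NASH-CH rats (64.3). Psme2 measured 24.7 to 40.4 CPM among control rats (32.4), 24.4 to 27.8 among NASH rats (25.8) and 25.6 to 34.9 among NASH-CH rats (32.0). Both overlapped control in each model. Psme1 gave -0.15 for NASH (adjusted p = 0.287) and -0.09 for NASH-CH, and Psme2 gave -0.27 (adjusted p = 0.172) and 0.00 (adjusted p = 0.982).

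**Figure D3:**
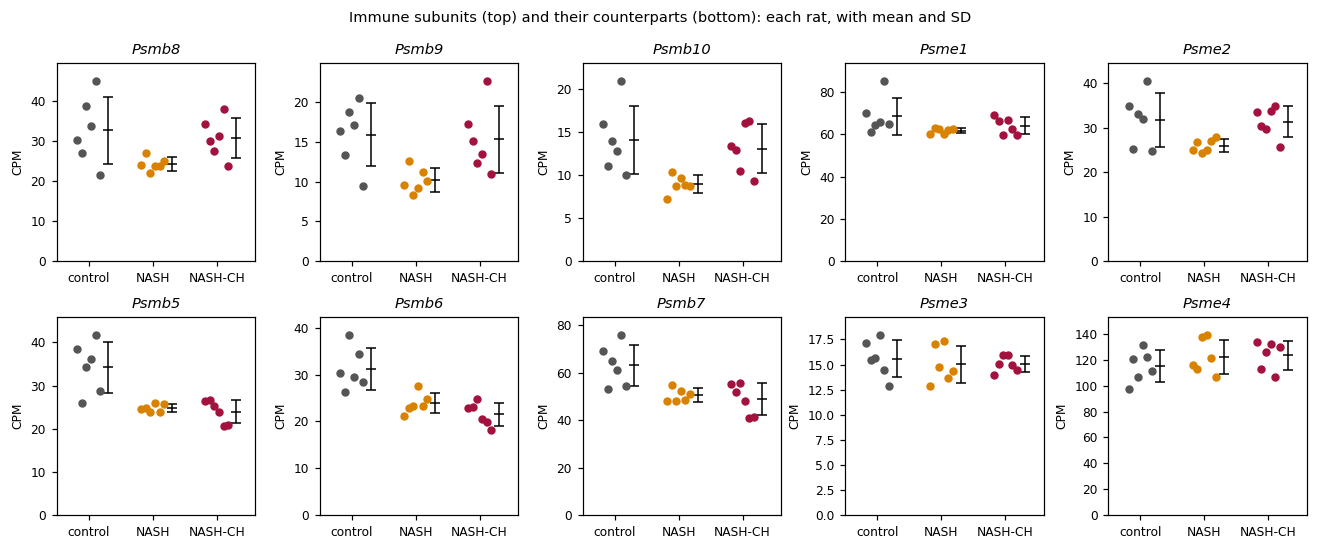
CPM in each rat of the 5 immune genes (top row) and of Psmb5, Psmb6, Psmb7 and the other activators Psme3 and Psme4 (bottom row). The mean and SD of the 6 rats of each group lie at the right of the points, and axes start at 0. Psmb5, Psmb6 and Psmb7 are low in NASH and NASH-CH, while Psmb8, Psmb9 and Psmb10 lie in the lower part of the control range or below it in NASH and spread over most of the control range in NASH-CH.

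The balance of immune to standard subunits was measured within each rat as the log2 ratio of their counts, with 2 added to each, for the 3 pairs that replace each other. A ratio within a library does not depend on library scaling, so it answers whether the immune genes stood higher beside their partners whatever the scaling. A higher ratio can come from more of the immune gene or from less of the standard gene. Each ratio compares 2 genes of unequal length, and its level has no meaning apart from differences between groups. The 9 comparisons were tested by two-sided exact permutation over rats, whose smallest p is 0.00216, with Benjamini-Hochberg adjustment over the 9.

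Psmb8/Psmb5 was -0.09 ± 0.25 among control rats, -0.03 ± 0.09 among NASH rats and 0.35 ± 0.28 among NASH-CH rats (mean ± SD, n = 6). In NASH-CH the values were 0.37, 0.16, 0.12, 0.39, 0.88 and 0.19 in rats 1 to 6, and 4 of the 6 exceeded the highest control value, 0.17. NASH-CH exceeded control by 0.44 (exact permutation p = 0.00649, adjusted p = 0.0117) and NASH by 0.39 (exact permutation p = 0.00433, adjusted p = 0.0117), and NASH and control differed by 0.05 (exact permutation p = 0.608). On a linear scale the ratio was 1.36-fold that of control in NASH-CH.

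Psmb9/Psmb6 was -1.0 ± 0.31 among control rats, -1.23 ± 0.27 among NASH rats and -0.52 ± 0.40 among NASH-CH rats. Of the 6 NASH-CH rats, 5 exceeded the highest control value, -0.75, and 5 the highest NASH value, -0.86. The difference was 0.48 between NASH-CH and control (exact permutation p = 0.0238, adjusted p = 0.0357) and 0.71 between NASH-CH and NASH (exact permutation p = 0.00433, adjusted p = 0.0117). The first missed the threshold in 8 of 12 tests that each left out 1 rat, namely without control rat 1 (0.50), 2 (0.48), 3 (0.47) or 6 (0.36) or NASH-CH rat 1 (0.45), 2 (0.49), 4 (0.49) or 5 (0.33). The NASH difference of -0.23 (exact permutation p = 0.19) became -0.35 and passed without control rat 6 (exact permutation, adjusted p = 0.0487).

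Psmb10/Psmb7 was -2.19 ± 0.19 among control rats, -2.51 ± 0.12 among NASH rats and -1.92 ± 0.40 among NASH-CH rats. It was lower in NASH than in control by 0.32 (difference -0.32, exact permutation p = 0.00649, adjusted p = 0.0117), with 0 of 6 NASH rats above the control mean. NASH-CH exceeded NASH by 0.58 (exact permutation p = 0.00433, adjusted p = 0.0117), and differed from control by 0.27 (exact permutation p = 0.182, adjusted p = 0.214). Thus all 3 pairs passed the test with NASH-CH above NASH, 2 of 3 with NASH-CH above control (1 of these, Psmb9/Psmb6, lost when single rats were left out) and 1 of 3 with NASH below control. The means of NASH-CH were above control in all 3 pairs, and those of NASH below it in 2. On TMM scaling, Psmb8, Psmb9 and Psmb10 gave log2 fold changes of -0.07, -0.05 and -0.08 in NASH-CH against control. Psmb5, Psmb6 and Psmb7 gave -0.50, -0.53 and -0.37, so on that scaling the higher ratios went with lower standard genes. On library size only, Psmb8, Psmb9 and Psmb10 gave 0.20, 0.21 and 0.16 in NASH-CH, while Psmb5, Psmb6 and Psmb7 did not change sign. The split of the ratio between the 2 partners thus depends on the scaling. These fold changes rest on the same counts, so the ratios are not separate evidence.

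**Figure D4:**
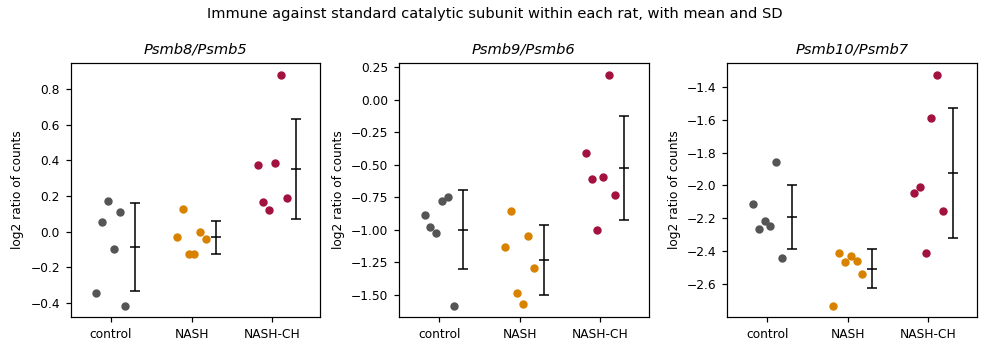
Log2 ratio of counts of each immune catalytic gene to the standard gene whose place it takes, in each rat, with the mean and SD of each group (6 rats each). In each panel at least 5 of 6 NASH-CH rats lie above every NASH rat, and NASH-CH rat 5 is the highest point of all 3.

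The other activators differed little from control. Psme3, the activator of the nucleus (PA28 gamma), measured 12.9 to 17.9 CPM among control rats (15.6), 12.9 to 17.4 among NASH rats (14.6) and 13.9 to 15.99 among NASH-CH rats (15.01), with log2 fold changes of -0.05 and -0.04. Psme4 (PA200) measured 97.2 to 131 CPM among control rats (116), 107 to 139 among NASH rats (119) and 107 to 133 among NASH-CH rats (128). It was 1 of 2 genes above control in NASH, at 0.09 (adjusted p = 0.601), and 1 of 3 in NASH-CH, at 0.11 (adjusted p = 0.453). The inhibitor Psmf1 (PI31) gave -0.26 for NASH (adjusted p = 0.249) and -0.23 for NASH-CH (adjusted p = 0.234).

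Of the 7 assembly chaperones, 2 fell in NASH-CH and 0 in NASH. Psmg1, which with Psmg2 builds the alpha ring, measured 14.3 to 26.4 CPM among control rats (19.0), 13.1 to 16.01 among NASH rats (14.5) and 9.33 to 16.4 among NASH-CH rats (12.7). It had the largest fall of the 47 genes in NASH-CH, -0.61 (SE 0.15, adjusted p = 0.00961), while Psmg2, its partner, gave 0.04 (adjusted p = 0.835). Psmg4, which pairs with Psmg3, measured 3.61 to 5.05 CPM among control rats (4.48), 3.56 to 4.83 among NASH rats (4.36) and 2.94 to 3.90 among NASH-CH rats (3.33). It fell in NASH-CH against control (-0.41, SE 0.10, adjusted p = 0.0104) and was the 1 gene of the 47 that also fell against NASH (-0.36, SE 0.10, adjusted p = 0.0475), where 2.37% of all genes fell. That last call was lost in 14 of 18 fits that each left out 1 rat, with values of -0.32 to -0.38 in those, and was kept without control rat 1 or 6, NASH rat 4 or NASH-CH rat 1. Of the other chaperones, Psmd5, Psmd9, Psmd10 and Psmg3 gave -0.09 to -0.38 over both models and passed in neither. Psmc3ip, which is no subunit, was at 0.36 to 1.13 CPM in all rats and gave -0.11 and 0.01.

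On TMM-scaled CPM, many core and regulatory genes were high or low together within a rat. Over the 31 core and regulatory genes, control rat 2 was the lowest of its group for 25 and control rat 5 the highest for 16. NASH rat 4 was the highest of its group for 21, and NASH rats 1 and 5 the lowest for 14 each. NASH-CH rats 6 and 5 were the lowest of their group for 16 and 13. The immune genes did not always follow. In NASH-CH rat 5 the median log2 ratio to the control mean was -0.37 over the core and regulatory genes and 0.21 over the immune genes. In control rat 6 the same medians were -0.15 and -0.50, and in NASH-CH rat 6 they were -0.42 and -0.47. These ranks and medians rest on TMM scaling. NASH-CH rats 5 and 6 had the highest TMM factors of their group (1.28 and 1.22), which lower CPM. As a share of all counts, their proteasome genes together were the highest of the group, at 0.191% and 0.179%. Control rat 5 had the lowest factor of its group (0.79). In NASH the share went the same way as the ranks, highest in rat 4 (0.199%) and lowest in rats 1 and 5 (0.145% and 0.152%). The part of scaling was not tested.

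Other genes of the pathway were read from lists chosen by function. Among 17 tested partners of the 26S proteasome, 1 rose and 0 fell in NASH, and 2 rose and 3 fell in NASH-CH, with medians of -0.02 and -0.06. Of all genes tested, 1.58% rose and 1.54% fell in NASH, and 8.38% rose and 8.60% fell in NASH-CH. Sem1, a small lid subunit outside the name pattern, measured 24.1 to 36.4 CPM in control (29.8) and 19.8 to 23.1 in NASH-CH (20.9) and fell by 0.47 on the log2 scale (adjusted p = 0.00377), with no overlap. Fbxo7, which binds Psmf1, fell by 0.47 (adjusted p = 0.00225), and Pithd1 fell by 0.41 (adjusted p = 0.0295). The ubiquitin shuttles Ubqln2 and Ubqln4 rose in NASH-CH by 0.77 (adjusted p = 0.0466) and 0.32 (adjusted p = 0.022). In NASH these 2 genes gave 0.88 (adjusted p = 0.0754 by limma) and 0.26 (adjusted p = 0.114 by limma). Zfand2a, a stress-induced partner, rose in NASH by 1.72 (SE 0.45, adjusted p = 0.0458), with 19.4 to 174 CPM against 8.87 to 52.9. Its NASH-CH value was 1.33 (adjusted p = 0.0575 by limma). Pomp, the chaperone that completes the beta rings, gave -0.31 for NASH (adjusted p = 0.392) and -0.50 for NASH-CH (adjusted p = 0.0723).

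Of 10 regulators of proteasome genes, none passed in either model by limma, and 0 and 1 were lower and 0 higher at an unadjusted p under 0.05. Nfe2l1 (Nrf1), which drives subunit genes when proteasome activity is low, measured 25.5 to 51.7 CPM among control rats (32.4), 32.9 to 39.6 among NASH rats (35.7) and 32.1 to 46.1 among NASH-CH rats (38.5), with log2 fold changes of 0.10 and 0.20 (adjusted p = 0.733 and 0.372). Nfe2l2 (Nrf2) gave 0.06 and 0.04. Among 16 genes of ubiquitin and its unfolding machinery, 0 passed in NASH by limma, where at an unadjusted p under 0.05 2 were lower and 1 higher. In NASH-CH 1 fell and 0 rose, beside 8.60% and 8.38% of all genes. The gene that fell was Uba6, an enzyme that activates ubiquitin, at -0.31 (adjusted p = 0.0261). The symbols Hspa8 and Rps27a were each carried by 2 Ensembl genes, and the gene with more counts was used. For Hspa8, a chaperone, that gene was at 371 to 811 CPM over all rats and gave 0.26 in NASH-CH (adjusted p = 0.246), while the other, at 1.31 to 8.61 CPM, gave 1.40 (adjusted p = 0.00147). The lesser Rps27a gene gave -0.53 (adjusted p = 0.0253) and the one used -0.27 (adjusted p = 0.131). Reads can be shared between such copies, so both splits are uncertain.

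Genes of interferon signalling and class I antigen processing were set beside the immune subunits. Of 24 tested, 1 fell and 0 rose in NASH, and 1 rose and 1 fell in NASH-CH, with medians of -0.21 and -0.15. Over all genes tested, 1.54% fell and 1.58% rose in NASH, and 8.60% fell and 8.38% rose in NASH-CH. At an unadjusted p under 0.05 by limma, 7 were lower and 2 higher in NASH, beside 11.0% of all genes lower. In NASH-CH 4 were lower and 2 higher, beside 15.6% of all genes lower. Wholly below control in NASH were 2 of the 24, beside 1.39% of all genes. Ube2l6, the conjugating enzyme for ISG15, measured 7.02 to 13.5 CPM among control rats (10.6), 4.90 to 6.95 among NASH rats (5.81) and 5.87 to 9.98 among NASH-CH rats (8.66). All NASH rats lay below all control rats (-0.72, SE 0.18, adjusted p = 0.0343), and NASH-CH gave -0.27. In NASH-CH the peptide trimmer Erap1 rose by 0.45 (adjusted p = 0.0144) and the chaperone Calr fell by 0.60 (adjusted p = 0.0449). Irf1, the factor known to drive immune subunits, measured 9.22 to 52.0 CPM among control rats (31.8), 4.82 to 22.7 among NASH rats (11.8) and 9.88 to 36.1 among NASH-CH rats (19.2). The control range spanned most of both, and the log2 fold changes were -1.03 (SE 0.46, adjusted p = 0.199) and -0.34 (adjusted p = 0.631). Ifng had 0 or 1 count in each rat and was not tested.

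Leukocytes carry much immunoproteasome, so their markers were read beside it. Of 15 listed, 10 were tested. Their summed level was 69.2 to 109 CPM among control rats (median 82.2) and 69.1 to 90.0 among NASH rats (77.3). Among NASH-CH rats it was 80.0 to 184 (92.2). In NASH 0 of 10 passed by limma and 1 was lower at an unadjusted p under 0.05. In NASH-CH Lyz2, of myeloid cells, rose by 1.58 (adjusted p = 0.000658) and Csf1r, of macrophages, fell by 0.46 (adjusted p = 0.00635). The pan-leukocyte gene Ptprc gave 0.13 and 0.28 (adjusted p = 0.757 and 0.328). Cd3e, Cd3d, Cd79a and S100a8 did not pass the filter for testing, and each had 0 counts in at least 1 rat. The symbol Itgam was absent from the genes quantified. The part of leukocytes in the immune subunit values was not tested. Hepatocyte markers were abundant in all libraries. Their summed levels were 118732 to 179585 CPM among control rats, 81863 to 138210 among NASH rats and 78111 to 130914 among NASH-CH rats. Of the 7 markers, 1 fell in NASH (Apoa1), beside 1.54% of all genes. In NASH-CH 3 of 7 fell (Alb, Apoa1 and Ttr), beside 8.60% of all genes. Most of the sum was Alb, at 105822 CPM on average in control. The medians of the sum of all 7 markers were 140501, 111286 and 111841 CPM among control, NASH and NASH-CH rats. The 4 other markers stayed near control, with log2 fold changes of -0.13 to 0.10 in NASH and -0.04 to 0.15 in NASH-CH for Tf, Fgb, Cps1 and Hnf4a, and none passed by limma, also at an unadjusted p under 0.05. The part of hepatocytes in the proteasome values was not tested.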

How the data were processed

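Liver RNA of 18 rats was sequenced. The authors trimmed reads (Trim Galore), aligned them with STAR to Rnor_6.0, used RSEM with the genes of Ensembl release 95 and deposited its expected counts per rat, not normalized; tool versions are not given in the sources used here. The labels name a stranded mRNA library kit. Expected counts were rounded, scaled by TMM (edgeR 4.0.16), filtered by filterByExpr to 12904 genes and tested with limma-voom (limma 3.58.1, R 4.3.3) in 1 fit of all rats with a mean per group, without a replicate block. Totals ran from 19498566 to 60117864 counts per rat and were highest in NASH-CH, and the part of depth was not tested. Grouping followed the labels. Members and lists were chosen with earlier results of these data known. Named were the immune genes, their counterparts, the activators and inhibitor, every member past the threshold, the extreme members of each role, up to 5 genes past it per list, and Irf1, Nfe2l1, Nfe2l2 and Pomp; the remaining members and Ptprc were added to account for each role and list. Some listed genes are not reported here and were left out of the lists' counts. The tests were tried on simulated data. Alternatives were DESeq2 1.42.0, the quasi-likelihood test of edgeR, other scalings, filters and weights, a replicate block, and leaving out each rat. RefSeq promoters were searched with Python 3.11.15.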

Additional observations from a re-analysis of the deposited data

Results flagged for a closer look

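In 5 of 150 groups of 6 rats, the highest or lowest rat stood apart from the other 5 by Dixon's criterion (gap over range above 0.625), and chance flags about 1 in 20 groups. Psma4 measured 34.4 CPM in NASH-CH rat 6, below the next rat at 44.4. Psmc1 measured 39.9 CPM in the same rat, below the next at 43.6. Psmd1 measured 90.2 CPM in NASH rat 4, above the next at 79.1. The log2 Psmb8/Psmb5 ratio was 0.88 in NASH-CH rat 5, above the next at 0.39. The log2 Psmb9/Psmb6 ratio was -1.58 in control rat 6, below the next at -1.03.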

How the results depend on the processing

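Counts of members past the threshold depended on the settings. In NASH, where 3 were lower, the count was 0 at an adjusted p of 0.01 and on library size only, 1 with upper-quartile factors or no filter on low counts, 5 with edgeR or the 2 groups fitted alone, 16 with DESeq2 and 21 with sample quality weights, and 0 to 17 when 1 rat was left out. In NASH-CH, where 14 were lower, it was 5 at an adjusted p of 0.01, 4 on library size only (with 1 higher) and 9 with the 2 groups fitted alone, and 11 to 19 when 1 rat was left out. Against NASH, the 1 lower gene became 0 at an adjusted p of 0.01, on library size only, and with upper-quartile factors, edgeR, at least 10 counts in every library, the replicate block or the 2 groups fitted alone, and 0 to 1 when 1 rat was left out. Higher genes there were 2 with DESeq2, 1 without a filter or with quality weights, and 0 to 1 when 1 rat was left out (1 without NASH-CH rat 6). The causes were not tested. Medians stayed within the spread between rats in all settings compared except library size only, which gave -0.0792 and -0.0799 for the core and 0.04 and 0.085 for the regulatory genes in NASH and NASH-CH. The medians were not compared with edgeR, DESeq2 or sample quality weights.

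On library size only, 27 of the named values changed sign. In NASH these were Psma1 (0.0694), Psma6 (0.10), Psmc5 (0.0512), Psmc6 (0.0738), Psmd1 (0.10), Psmd3 (0.14), Psmd6 (0.0488), Psmd7 (0.04), Psmd11 (0.12), Psme1 (0.082), Psme3 (0.17) and Psmg4 (0.18). In NASH-CH these were Psma1 (0.16), Psma6 (0.13), Psmb8 (0.20), Psmb9 (0.21), Psmb10 (0.16), Psmc4 (0.10), Psmc5 (0.10), Psmd1 (0.20), Psmd3 (0.10), Psmd11 (0.22), Psmd14 (0.0093), Psme1 (0.17), Psme2 (0.26), Psme3 (0.21) and Psmf1 (0.0169). This scaling moved the median of all genes to 0.23 and 0.27. Psme2 in NASH-CH also changed sign with no filter (0.0038) and with at least 10 counts in every library (0.0072). Leaving out 1 rat changed the sign of 6 small values. In NASH-CH against control these ranged from -0.0734 to 0.0654 for Psme2, -0.20 to 0.0459 for Psmb9, -0.18 to 0.0297 for Psmb8, -0.18 to 0.0328 for Psmb10 and -0.0062 to 0.11 for Psmg2, and in NASH from -0.10 to 0.0044 for Psmg4.

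The 6 differences in subunit ratio that passed kept their direction in all settings. When 1 rat was left out, Psmb8/Psmb5 ranged from 0.33 to 0.49 in NASH-CH and 0.28 to 0.43 between models, Psmb9/Psmb6 from 0.33 to 0.57 and 0.56 to 0.80, and Psmb10/Psmb7 from -0.37 to -0.25 in NASH and 0.46 to 0.68 between models. Those that did not pass ranged from -0.0111 to 0.11 for Psmb8/Psmb5 in NASH (-0.0111 without control rat 6), -0.35 to -0.16 for Psmb9/Psmb6 in NASH and 0.15 to 0.36 for Psmb10/Psmb7 in NASH-CH. Rats share the numbers 1 to 6 across groups. Deviations of same-numbered rats correlated weakly, at -0.12 to 0.17 in NASH and control, 0.03 to 0.12 in NASH-CH and control and -0.07 to 0.08 in the 2 models. Rats of unlike number were not compared in this way, so whether the numbers pair the rats was not settled. With the replicate block, an exact sign-flip test whose smallest p is 0.03125, the differences of 0.44 for Psmb8/Psmb5 in NASH-CH (adjusted p = 0.0938), 0.39 between models, 0.48 and 0.71 for Psmb9/Psmb6, and -0.32 and 0.58 for Psmb10/Psmb7 no longer passed (adjusted p = 0.0563 for the other 5). For those 5 all 6 pairs had one sign, so p was the smallest possible. With 5 of the 9 tests at that p, adjustment gave 0.0563, so for these 5 the miss reflects the floor of the sign-flip test and the number of tests that reached it. In the limma fits the block left the counts of lower genes at 3 in NASH and 14 in NASH-CH, but in NASH Psmb9 (adjusted p = 0.0471) and Psmb10 (adjusted p = 0.0425) passed and Psmb6 (adjusted p = 0.0588) and Psma7 (adjusted p = 0.0766) did not.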

Other observations

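Other promoter elements were counted as well. A GC box (GGGCGG) was found in 31 of 43 matched members, beside 33.1% of the 33469 promoters in the table, and a CCAAT box in 22 of 43, beside 37.5%. The core of the antioxidant response element (TGACNNNGC), through which the Nrf factors act, was found in 8 of 43, beside 12.1% of all promoters, and in Psmb2, Psmb5, Psmb6 and Psma3 of the 13 matched core genes. The motifs were searched on both strands and can overlap each other, and these shares carry no test.

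Markers of other liver cells were measured beside the proteasome genes. In NASH-CH against control, the stellate cell genes Des (0.65, adjusted p = 0.00468 by limma) and Col1a1 (1.02, adjusted p = 0.0186 by limma) and the endothelial gene Vwf (1.13, adjusted p = 0.00245 by limma) rose. The other endothelial genes did not pass by limma there, with -0.35 for Kdr (adjusted p = 0.115) and 0.17 for Stab2 (adjusted p = 0.534). In NASH, 0 of 4 stellate and 0 of 3 endothelial genes passed the limma threshold, where 2 endothelial genes were higher and 0 stellate genes differed at an unadjusted p under 0.05. Of 4 cholangiocyte markers 2 were tested, and 0 of 2 passed in either model by limma, also at an unadjusted p under 0.05.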
